A study of Mus musculus with 10 samples.

Results

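The planar cell polarity core genes are the set of membrane and adaptor proteins that align cells within the plane of a tissue. In this series 10 of them were followed in the urogenital system of mouse embryos at embryonic day 15.5. They are Vangl1, Vangl2, Celsr1, Celsr2, Celsr3, Prickle1, Prickle2, Ptk7, Scrib and Dvl2, and they were taken as all probe sets whose platform gene symbol is exactly one of these names. This gave 17 probe sets of 45101 on the array, and 10 genes of the 18193 that carried a name. 5 members had 1 probe set each and 5 had several.

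RNA was measured on 10 Affymetrix arrays, each hybridized with RNA of 1 to 2 urogenital systems. In the first 5 pools both copies of Wnt9b were the cneo allele (Wnt9bcneo/cneo), and these are called homozygous. The other 5 are called control. Their genotype label reads Wnt9bcneo/+, while their titles and the title of the series call them wild type, and the difference could not be resolved. If the genotype label holds, both groups carry at least 1 cneo allele. The labels name no strain and do not say how the allele alters the transcript. Wnt9b itself differed by -0.23 ± 0.36 (log2, SE; adjusted p = 0.803, limma), which does not check the labels because the altered part of the gene is not given. The labels call the samples distinct pools of RNA, and p-values refer to the variation among such pools.

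In planar cell polarity, Celsr cadherins join neighbouring cells, Frizzled receptors with Dvl proteins gather on one side of a cell, and Vangl proteins with Prickle proteins gather on the opposite side. The pathway shares Dvl proteins with canonical Wnt signalling but does not act through beta-catenin. In the kidney it is known for the orientation of cell divisions and the elongation of tubules, and Wnt9b has been linked to it there.

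Some properties of the pools bear on all values. RNA integrity was read from actin, as the intensity of its 3' probe set divided by that of its middle one. Homozygous pool 5 (97.67) and control pool 1 (94.77) had high ratios, and the remaining 8 pools had ratios of 9.87 to 33.13. High here means over 50, a limit set for these pools, and it does not mark the RNA of the remaining pools as intact. Xist was high in homozygous pools 3, 4 and 5 (13.75 to 14.27, log2) and at most 6.07 in the other 7, so the sex of the embryos differed between pools. No control pool was Xist-high (5.13 to 5.71), so sex was not balanced between the groups compared. The part of sex in the member differences was not tested. Titles of homozygous pools 1 to 4 end in CHP and those of the other 6 do not, and what this ending marks is not given. Homozygous pool 5 lacks the ending, like the controls, and also had a high actin ratio. At the brightest probe set of each member, it lay within the range of homozygous pools 1 to 4 for Celsr2 (479.3), Celsr3 (108.7), Prickle1 (1641.4) and Dvl2 (89.1). It lay below that range for Celsr1 (235.7), Vangl1 (74.0), Vangl2 (1243.7), Ptk7 (7.4) and Scrib (191.1), and above it for Prickle2 (2777.6). The part of the ending in the member values was not tested. Kidney markers were present in both groups, with Calb1 of the ureteric bud and collecting duct at 11.25 and 12.40 (mean log2) in homozygous and control pools. The number of arrays limits the precision.

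None of the 10 members passed the threshold of adjusted p under 0.05 (limma over all genes), where 0.967% of all genes did. The unadjusted p was under 0.05 for 4 members, Celsr1, Celsr2, Celsr3 and Prickle2, and 15.7% of all genes reached that level. The 3 Celsr genes had the lowest adjusted p of the members. Celsr3 was higher in homozygous pools, with a log2 difference of 2.41, whereas Celsr1 and Celsr2 were lower by -0.77 and -0.61. In all, 3 members were higher and 7 lower in homozygous pools, with a median difference of -0.34 against 0.00 over all genes. The median size of the difference, without its sign, was 0.51 for the members and 0.20 over all genes.

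**Figure D1:**
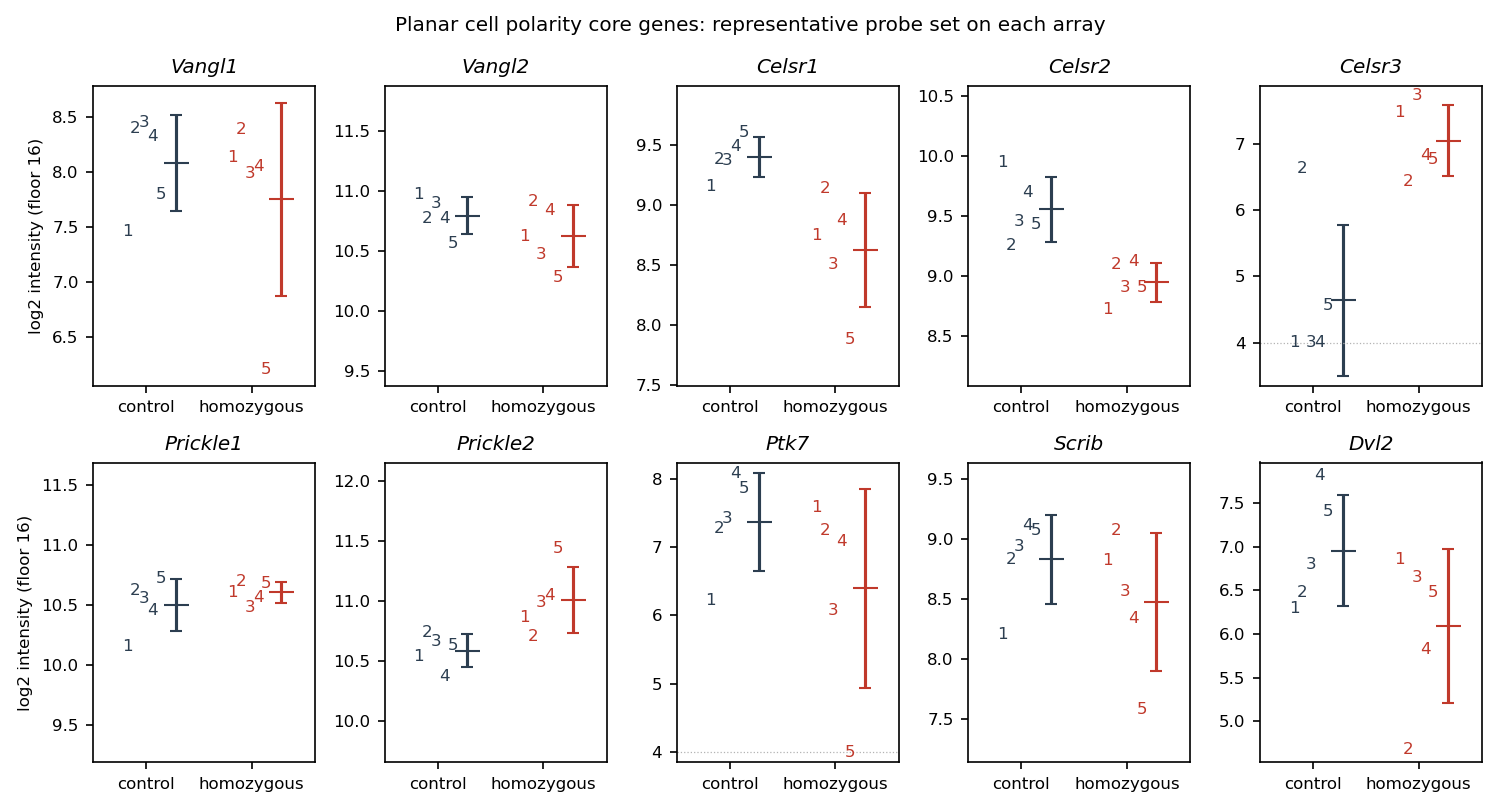
Log2 intensity (values under 16 set to 16) of the representative probe set of each member, with control pools in dark blue and homozygous pools in red; each digit is the pool number, and the bar gives the mean and SD of 5 pools. Each panel has its own log2 scale and the dotted line, where it falls within a panel, is the floor; the groups do not overlap for Celsr1 and Celsr2, and control pool 2 lies among the homozygous pools for Celsr3.

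Celsr3 encodes an atypical cadherin of the adhesion receptor class that is known mainly from neurons, where it guides axon tracts. Its single probe set (1425067_at) read 178.1, 86.3, 210.8, 113.5 and 108.7 in homozygous pools 1 to 5 (linear intensity). In control pools 1 to 5 it read 3.0, 98.8, 4.9, 6.6 and 23.5. The control values lay at or under the floor of 16 in 3 pools, and control pool 2 lay above homozygous pool 2, so the groups overlapped. On the log2 scale with values under 16 set to 16, the mean was 7.04 ± 0.54 (SD, n = 5) in homozygous and 4.64 ± 1.14 (SD, n = 5) in control pools. The difference was 2.41 ± 0.53 (SE, 95% interval 1.20 to 3.61; adjusted p = 0.0722, limma). Its size depended on the floor, at 1.72 with a floor of 32 and 3.48 with a floor of 1. Without control pool 2 the difference was 2.91 and passed (adjusted p = 0.0111, limma). In that fit 414 of all genes passed, against 176 with all 10 pools. With any other 1 pool left out Celsr3 did not pass (adjusted p of 0.0772 to 0.183, limma).

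The sequence in front of the Celsr3 gene is shown because this member had the largest difference. It covers chr9:108825795-108826022 of GRCm38.p6 on the + strand, the 228 bases before the first annotated base of the gene, from RefSeq. Capitals mark 1 match to the core motif of the factor YY1 (CCATNTT, searched on both strands), which starts 71 bases before the gene and was chosen after the sequence had been read.
Celsr3: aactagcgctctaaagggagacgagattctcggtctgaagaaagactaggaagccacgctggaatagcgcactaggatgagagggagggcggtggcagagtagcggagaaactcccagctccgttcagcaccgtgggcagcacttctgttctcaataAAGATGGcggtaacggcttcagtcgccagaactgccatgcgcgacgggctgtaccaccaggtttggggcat
This stretch holds 15 CpG pairs, against a median of 5 in 32544 promoter stretches of the same length, 76.6% of which held fewer. The YY1 letters occur in 11.6% of those stretches. The letters CTTTGA, the core bound by TCF/LEF factors of canonical Wnt signalling, occur in 13% of the stretches and not in this one. The E-box CAGCTG (11.8% of stretches) and the TATA box TATAAA (11.5%) were also not in it, on either strand.

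Markers of neurons and chromaffin cells varied between pools beside Celsr3. The list of these markers had 13 measured genes, all 13 of them higher in homozygous pools with a median difference of 2.94, none past the threshold and all 13 at an unadjusted p under 0.05 (limma). Like the other marker lists here, it was chosen with earlier results of these data known, so such counts are not a separate test. Its mean log2 level ran from 9.70 to 11.16 in homozygous pools and from 5.60 to 9.31 in control pools, and no marker was at the floor on every array. The highest control level, 9.31, was that of control pool 2, the control pool in which Celsr3 was also highest. The lowest control levels were 5.60 and 6.24 in control pools 1 and 3, both with Celsr3 under the floor. Control pool 4 also had Celsr3 under the floor, at a marker level of 7.91, close to the 7.89 of control pool 5, where Celsr3 read 23.5. Among homozygous pools, 3 and 1 had the highest marker levels (11.16 and 10.91) and the highest Celsr3. Pool 5 had the lowest marker level of the homozygous pools (9.70), but Celsr3 was lowest in pool 2. This order of pools was not particular to the neuronal list. The mean of the glial markers was highest of the control pools in pool 2 (8.75) and lowest in pools 3 and 1 (6.64 and 7.04). Among homozygous pools it was highest in pools 3 and 1 (9.2 and 8.91). Nefl, a neurofilament gene, and Hand2, a transcription factor of sympathetic neurons, were the brightest of the neuronal list and differed by 2.98 and 4.04. Fewer cells of a type and less RNA per cell cannot be told apart in these pools, and the part of the neuronal markers in the Celsr3 difference was not tested.

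The genes whose centred log2 values over the 10 arrays lay closest to those of Celsr3 were Elavl2, Tmem130, Map6 and Gdap1, among 12479 genes with a mean of at least 6. Their root mean square differences from Celsr3 were 0.31, 0.31, 0.33 and 0.36, where Celsr3 itself had an SD of 1.52 over the arrays. Elavl2 encodes a neuronal RNA-binding protein and Map6 a microtubule-stabilizing protein of neurons. Elavl2 and Gdap1 passed the threshold at log2 differences of 2.23 and 2.40 (adjusted p = 0.0477 and 0.0481, limma), and Tmem130 (2.58) and Map6 (2.20) did not. Because these genes were picked for closeness to Celsr3 on the same arrays, differences near its own follow from the choice and are no separate result.

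**Figure D2:**
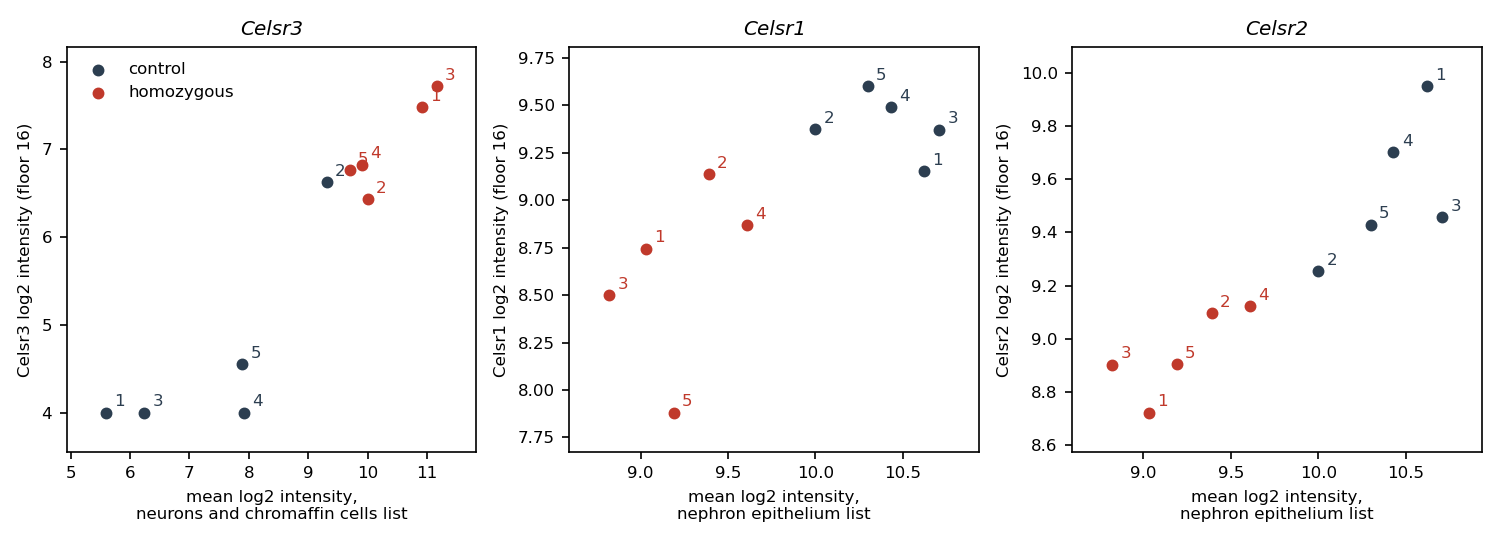
Log2 intensity of Celsr3 (left) against the mean log2 intensity of the neuron and chromaffin cell markers, and of Celsr1 (middle) and Celsr2 (right) against that of the nephron epithelium markers, with 1 point per pool and pool numbers beside the points. Control pool 2 has the highest neuronal mean (9.31) and the lowest nephron mean of the control pools and lies nearest to the homozygous pools in the left and right panels. In the middle panel the lowest control Celsr1 is instead that of control pool 1, whose nephron mean is 10.62.

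Celsr1 and Celsr2, the other Celsr cadherins, are known in epithelia as well as in the nervous system. The probe set of Celsr1 (1418925_at) read 429.1, 564.1, 362.5, 467.1 and 235.7 in homozygous pools and 569.9, 663.9, 663.2, 719.0 and 777.1 in control pools. Every homozygous pool lay below every control pool, with 564.1 in homozygous pool 2 and 569.9 in control pool 1 as the nearest pair. The means were 8.63 ± 0.48 and 9.40 ± 0.17 (log2, SD, n = 5 each), and the difference was -0.77 ± 0.22 (SE, 95% interval -1.26 to -0.28; adjusted p = 0.124, limma). The lowest value of each group was on its array of high actin ratio, homozygous pool 5 and control pool 1. Without homozygous pool 5 the difference was -0.59.

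The brighter probe set of Celsr2 (1435336_at) read 422.6, 547.9, 478.7, 558.0 and 479.3 in homozygous pools and 988.8, 610.4, 702.4, 832.7 and 689.4 in control pools. Here too the groups did not overlap, and control pool 2 was the control nearest to the homozygous pools. The difference was -0.61 ± 0.14 (SE, 95% interval -0.92 to -0.29; adjusted p = 0.0761, limma). Without control pool 2 it was -0.68 and passed (adjusted p = 0.0461, limma), in the fit where 414 of all genes passed. With any other 1 pool left out Celsr2 did not pass (adjusted p of 0.0837 to 0.19, limma). The dimmer probe set (1422073_a_at) read 49.9 to 103.3 in homozygous and 58.0 to 122.5 in control pools, so its groups overlapped, and it differed by -0.53 ± 0.27 (SE). Celsr1 and Celsr2 were the 2 members of 10 whose groups did not overlap, both lower in homozygous pools, where 2.10% of all genes separated in that direction and 4.71% in either.

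Markers of nephron epithelium were lower in the same pools. All 10 measured genes of that list were lower in homozygous pools, with a median difference of -1.30. Of these 5 fell past the threshold, the receptor genes Lrp2 (-1.73) and Cubn (-1.45), the transcription factor gene Hnf4a (-1.51), the phosphate transporter gene Slc34a1 (-1.17) and the cadherin gene Cdh6 (-0.80). Slc12a1 of the loop of Henle and the Notch ligand gene Jag1, the brightest of the list, differed by -1.12 and -0.08 and did not pass. The list mean ran from 8.82 to 9.61 in homozygous pools and from 10.30 to 10.71 in control pools 1, 3, 4 and 5, with control pool 2 between these ranges. The markers of ureteric bud and collecting duct had a median difference of -0.41, with 8 of 10 lower and none past the threshold. For epithelial markers of any kind, all 6 genes were lower, with a median of -0.49 and ranges of 9.68 to 10.77 in homozygous and 10.72 to 12.01 in control pools. The part of these epithelial markers in the Celsr1 and Celsr2 values was not tested.

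Vangl1 and Vangl2 are membrane proteins that bind Prickle and Scrib. The brightest of 3 Vangl2 probe sets (1436118_at) read 1568.7, 1920.5, 1416.5, 1828.5 and 1243.7 in homozygous pools and 2000.0, 1746.6, 1899.3, 1749.1 and 1513.7 in control pools. The groups overlapped widely, and homozygous pool 5 was lowest. The difference was -0.17 ± 0.13 (SE, 95% interval -0.46 to 0.12; adjusted p = 0.585, limma). It was -0.086 without homozygous pool 5 and -0.043 without both arrays of high actin ratio. This interval leaves no room for a change of 1 on the log2 scale at this probe set. The other Vangl2 probe sets differed by 0.04 and 0.20, so the sign was not shared within the gene.

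The brighter Vangl1 probe set (1427234_at) read 280.5, 334.1, 253.4, 265.1 and 74.0 in homozygous pools and 175.6, 335.3, 348.7, 318.9 and 221.4 in control pools. The lowest value of each group was on its array of high actin ratio, homozygous pool 5 and control pool 1. The difference of -0.33 ± 0.42 (SE, 95% interval -1.27 to 0.62) became 0.058 without homozygous pool 5. The second probe set (1441097_at), by contrast, was highest in homozygous pool 5 at 172.7, and ranged from 93.6 to 126.1 in the other homozygous pools and from 85.9 to 110.0 in control pools. It differed by 0.26 ± 0.17 (SE), so the probe sets of Vangl1 also had opposite signs.

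Prickle1 and Prickle2 are LIM domain adaptors that act with Vangl at the membrane. Prickle2 (1428808_at) read 1869.8, 1667.7, 2036.0, 2113.3 and 2777.6 in homozygous pools and 1492.9, 1709.9, 1619.9, 1328.5 and 1586.4 in control pools. Homozygous pool 5 was highest, and the overlap was confined to homozygous pool 2 and control pool 2. The difference was 0.42 ± 0.13 (SE, 95% interval 0.12 to 0.72; adjusted p = 0.162, limma). It was 0.31 without homozygous pool 5 and 0.20 without the 3 Xist-high pools.

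The brightest Prickle1 probe set (1452249_at) was the most even of the members, with an SD of 0.16 on the log2 scale over all 10 arrays. It ranged from 1430.7 to 1659.2 in homozygous pools and from 1142.5 to 1687.8 in control pools, and the control range enclosed the homozygous one. Its difference was 0.10 ± 0.10 (SE, 95% interval -0.13 to 0.33), and 0.017 without control pool 1. The 2 dimmer probe sets differed by 0.32 and 0.11, the last with 5 of 10 arrays at or under the floor.

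Ptk7 encodes a receptor-like pseudokinase that acts in planar cell polarity as a co-receptor. Its single probe set (1452589_at) read 192.1, 150.9, 67.2, 136.0 and 7.4 in homozygous pools and 74.8, 154.2, 171.6, 271.0 and 231.0 in control pools. The lowest values of the groups were again those of homozygous pool 5, under the floor, and control pool 1. The difference of -0.97 ± 0.69 (SE, 95% interval -2.53 to 0.58) did not pass (adjusted p = 0.557, limma). It was -0.37 without homozygous pool 5 and 0.041 without the 3 Xist-high pools. The genes closest to Ptk7 over the 10 arrays were Psme3, Aarsd1, Gtf2i and Adcy6, at root mean square differences of 0.19, 0.23, 0.24 and 0.25 against an SD of 1.20 for Ptk7. None of these 4 passed the threshold, with differences of -1.01 to -0.78, which follow from picking them for closeness to Ptk7.

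Scrib is a scaffold protein with PDZ domains that binds Vangl proteins and also acts in apical-basal polarity. Its probe set (1427064_a_at) read 454.1, 538.7, 379.7, 324.1 and 191.1 in homozygous pools and 294.7, 454.6, 490.6, 555.5 and 540.3 in control pools. As for Celsr1, Vangl1 and Ptk7, homozygous pool 5 and control pool 1 were the lowest of their groups. The difference of -0.36 ± 0.29 (SE, 95% interval -1.02 to 0.30, adjusted p = 0.621, limma) was -0.13 without homozygous pool 5.

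Dvl2 is the cytoplasmic adaptor that relays Frizzled signals in both Wnt branches. Its brighter probe set (1417207_at) read 115.9, 25.6, 100.2, 56.7 and 89.1 in homozygous pools and 78.2, 89.0, 111.2, 225.4 and 169.3 in control pools. Homozygous pool 2 was the lowest and control pool 4 the highest, and the groups overlapped. The difference was -0.86 ± 0.47 (SE, 95% interval -1.92 to 0.20, adjusted p = 0.433, limma), and it was -0.50 to -1.05 with any 1 pool left out. The second probe set was at or under the floor on 7 of 10 arrays.

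**Figure D3:**
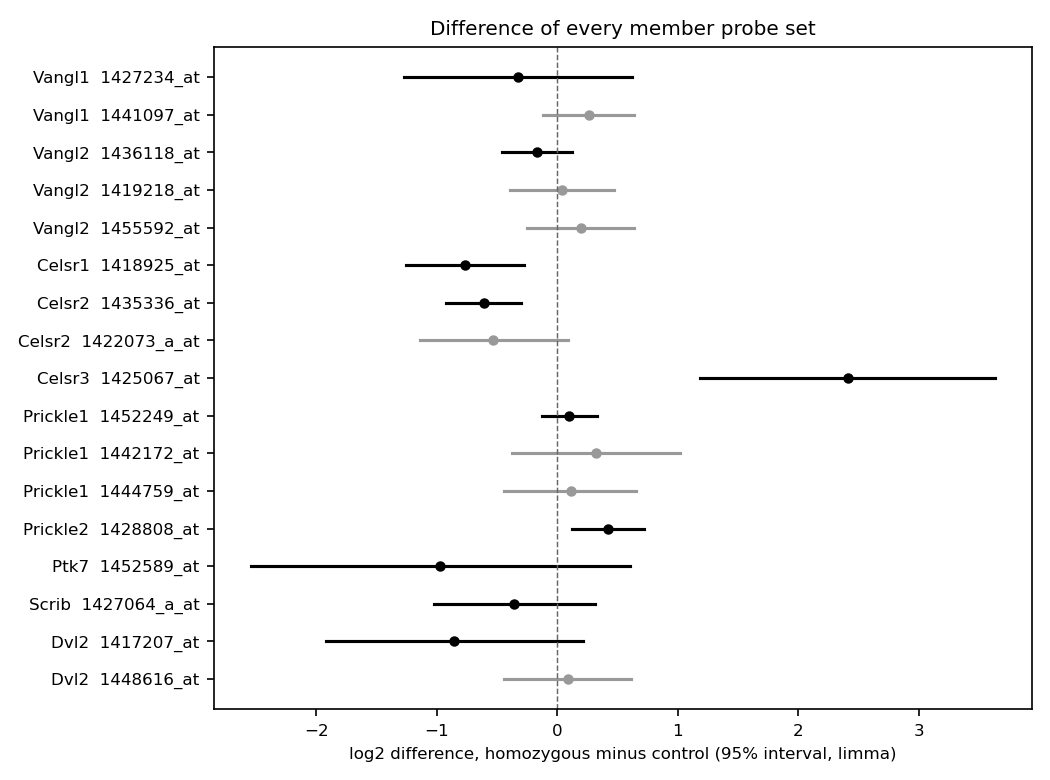
Log2 difference (homozygous minus control) and 95% interval from limma for all 17 member probe sets, with the representative probe set of each gene in black and the others in grey. The intervals of 4 representative probe sets leave out 0, those of Celsr1, Celsr2, Celsr3 and Prickle2, and the probe sets of Vangl1, Vangl2 and Dvl2 lie on both sides of 0.

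Read by probe set, none of the 17 passed in a fit over 45037 probe sets, where 0.231% of all did, and the lowest adjusted p was 0.109 for Celsr3 (limma). Over all 10 arrays the median SD of the members was 0.51 on the log2 scale, against 0.36 over all genes, which include dim genes narrowed by the floor. Among homozygous pools 5 of 10 members were lowest in pool 5, compared with 31.7% of all genes. In the control group 7 of 10 members were lowest in pool 1, compared with 35.3% of all genes. Where pools tied at the floor, the first pool of the group was counted as lowest. Ties therefore raise the 35.3% and lower the 31.7%. Without both of these arrays Celsr1, Celsr2 and Celsr3 differed by -0.65, -0.50 and 2.32. None of the 10 members passed there, where 23 of 18193 genes did. Without the 3 Xist-high pools the same differences were -0.46, -0.65 and 2.32, again with no member past the threshold. That fit kept only homozygous pools 1 and 2 beside the 5 control pools, and 28 of 18193 genes passed in it. Vangl1, Ptk7 and Scrib changed sign without the Xist-high pools, which include homozygous pool 5.

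**Figure D4:**
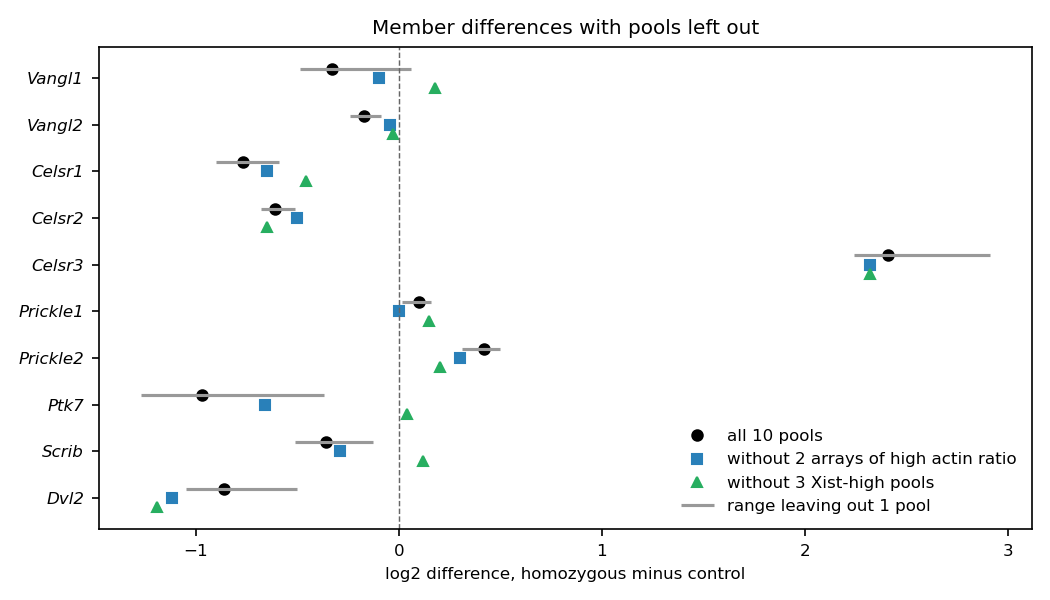
Log2 difference (homozygous minus control) of each member over all 10 pools (black), without the 2 arrays of high actin ratio (blue) and without the 3 Xist-high pools (green), with a grey line for the range over fits that leave out 1 pool. Celsr3 stays between 2.24 and 2.91, Celsr1 and Celsr2 stay below 0, and Vangl1, Ptk7 and Scrib cross 0 without the Xist-high pools.

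Other genes of the pathway were read from 4 lists, of which 36 of 40 genes were measured. None of the 36 passed the threshold, where 0.967% of all genes did. An unadjusted p under 0.05 (limma) was reached by 8 of the 36 and by 15.7% of all genes. In homozygous pools 19 of the 36 were higher and 17 lower, with a median difference of 0.01. The groups did not overlap for 2 of them (5.56%), against 4.71% of all genes.

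Among the ligands and receptors of noncanonical Wnt signalling, 4 genes were higher and 6 lower. Wnt5b had the lowest adjusted p of all 36 genes. It read 319.2, 257.6, 316.1, 226.6 and 284.2 in homozygous and 204.1, 190.9, 133.9, 156.9 and 212.7 in control pools, so that every homozygous pool lay above every control pool. Its difference was 0.65 ± 0.17 (SE, adjusted p = 0.0971, limma). Wnt11, a ligand made at ureteric tips in the kidney, differed by -0.63 ± 0.27 (SE), with control pools 3, 4 and 5 at 310.5 to 388.0 and control pools 1 and 2 at 179.3 and 181.7, within the homozygous range.

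Among the other core proteins and ciliary effectors, 5 genes were higher and 6 lower, and the receptor genes Fzd3 and Fzd6 had the smallest p at differences of -0.39 ± 0.12 and -0.32 ± 0.13 (SE). In the cytoskeletal effectors 9 of 11 genes were higher, with a median of 0.12. Daam1, a formin that binds Dvl proteins, differed by 0.46 ± 0.14 (SE, adjusted p = 0.143, limma). Mapk8, the kinase JNK1 of the pathway's output, differed by 0.18 ± 0.06 (SE) with groups that did not overlap. Of the Fat-Dachsous system, the parallel polarity pathway of large cadherins, 3 of 4 genes were lower, led by Fjx1 (-0.47 ± 0.24, SE) and Fat1 (-0.15 ± 0.08, SE).

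Markers of other tissues in the dissected pools also differed in level. Muscle markers were higher in homozygous pools in 10 of 10 genes (median 1.76) and adrenal cortex markers in 7 of 7 (median 1.49), and glial markers in 4 of 5 (median 0.95), with none past the threshold. Nephron progenitor markers had a median of -0.54 and renal stroma markers one of 0.07. Their part in the member values was not tested.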

How the data were processed

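The members and gene lists were chosen with earlier results of these data known. The authors deposited 1 linear intensity per probe set and array, and the mean without the highest and lowest 2% of values was 500 on every array. The sources used here do not give the summarization or background method, and the series design text describes an experiment on earlier kidney mesenchyme that the sample labels do not match. Probe sets were named by the platform annotation where it gave 1 symbol (34945 probe sets; 932 had several and 9160 none), and 64 Affymetrix controls were left out. Values under 16 were set to 16 and taken to log2. Each of 18193 genes was represented by its probe set of highest mean. Scaling of this kind does not measure changes of total RNA.

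The test was limma's (version 3.58.1, R 4.3.3; lmFit, eBayes with an intensity trend, two-sided, Benjamini-Hochberg over all genes or all probe sets), with no block. On simulated data over 18193 genes, 53% of genes changed by 1 and 77% of genes changed by 2 (log2) were recovered, and 10 of 140 calls were false. The simulated noise was independent between genes, with no floor and no difference shared by the genes of an array. These rates therefore need not hold for the real pools. Coordinates are those of GRCm38.p6. Of 10 members 7 had a RefSeq promoter sequence.

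The text names all members, the 2 genes of smallest p of each pathway list, the 4 genes closest to the 2 members of largest SD, and the 2 brightest markers of the neuron and nephron lists, Calb1 (one of the 2 brightest ureteric markers), and nephron markers past the threshold. Alternatives concerned the probe set per gene, dim genes, normalization, floor, replicate block, variance model, array weights and pools left out.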

Additional observations from a re-analysis of the deposited data

Results flagged for a closer look

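In 34 sets of 5 pools (17 probe sets in each genotype), 8 had a pool set apart from the rest, its gap to the nearest pool exceeding 0.71 of the range of the group. Chance gives about 1 in 20. In the representative probe sets, homozygous pool 5 stood below the others for Vangl1 (0.82 of the range) and control pool 2 above the others for Celsr3 (0.79). In dimmer probe sets, control pool 1 was low for Vangl2 (0.72), homozygous pool 4 was high (0.75) and control pool 4 low (0.75) for one Prickle1 probe set, and control pool 5 was high (0.79) for another. In the dim Dvl2 probe set homozygous pool 5 (0.82) and control pool 3 (1.00) were high. Values at the floor of 16 set the range for Celsr3, the last Prickle1 probe set and the dim Dvl2 probe set.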

How the results depend on the processing

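The count of all genes past the threshold, 176, was 109 with the mean of probe sets, 325 with genes of mean log2 of at least 6, 94 with a floor of 32, 951 with array weights, 28 without the Xist-high pools, 23 without the arrays of high actin ratio, and 3 to 414 with 1 pool left out. With array weights 3 members passed (Celsr1 at -0.69, Celsr2 at -0.53 and Celsr3 at 2.62), where 951 of 18193 genes did. With these weights 1 member probe set, that of Celsr3, and 1 other pathway gene, Daam1, also passed. With 1 pool left out 0 to 2 members, 0 to 1 member probe sets and 0 of the other pathway genes passed. The 2 members and the probe set passed without control pool 2, the fit in which 414 of 18193 genes passed. Signs reversed for Vangl1 without the Xist-high pools (0.18) and with 1 pool left out (-0.49 to 0.058, the last without homozygous pool 5), for Vangl2 with the mean of probe sets (0.022), for Prickle1 without the arrays of high actin ratio (-0.0021), and for Ptk7 (0.041) and Scrib (0.12) without the Xist-high pools; the cause was not tested. Of 199 member values under alternatives 188 kept their sign and side of the threshold. Celsr3 had no value with genes of mean log2 of at least 6, being dimmer. With the replicate number as a block 1 gene and 0 members passed. Deviations of pools with the same number correlated at -0.55 to -0.17, which gave no sign of pairing by number. Pools of different number were not compared, so this check cannot exclude pairing.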
